A study of Homo sapiens with 42 samples.

Results

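The MEIS1 locus was taken as every chromatin loop on chromosome 2 with an anchor starting between 65500000 and 67500000 in GRCh38, a window that holds MEIS1 and the gene-poor DNA on both of its sides. Of 33914 loops in all, 1681 were on chromosome 2 and 25 met this rule. Both anchors lay inside the window in 10 of the 25, and 1 anchor did in the other 15. The rule used positions and no measured change. The cells were K562, a human cell line from a myeloid leukemia, labelled wild type (WT) at every time. They were taken before PMA (0 h) and after 6 h or 72 h in 25 nM of it; PMA is a phorbol ester that activates protein kinase C and drives this line toward a megakaryocyte-like state. In situ Hi-C ligates pieces of DNA that were near each other when the nuclei were fixed, and a loop's count is the number of joined read pairs that link its 2 anchors of 10 kb each.

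The 42 samples, 14 a time, made up 12 libraries, with 4 biological replicates at each time. Depth was 849895 to 1472197 contacts in loops per library at 0 h, 736929 to 1090199 at 6 h and 988726 to 1181057 at 72 h. Counts of replicates 3 and 4, compared loop by loop in a chi-square test, did not differ beyond the sampling noise at 0 h (p 0.103) or at 72 h (p 0.474), while at 6 h they did (p 0.0484). They were therefore counted as 1 sample at those times, with 3 values in each mean ± SD, against 4 values at 6 h. The labels do not say whether the replicates were separate cultures, so p-values measure the spread between these libraries. K562 is 1 aneuploid line, and no gene expression was measured in these data, so its cell type was not checked against markers. In a bulk culture, a loop formed in more of the cells and a loop formed more often per cell cannot be told apart.

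MEIS1 is a homeobox transcription factor of the TALE class, which binds DNA together with PBX proteins and with HOX proteins. It is needed for blood stem cells and for the megakaryocyte lineage, where it acts at the promoter of the platelet gene PF4, and its excess with HOXA9 drives acute leukemia. Genes of this kind often lie in long gene-poor stretches that hold their distant enhancers, and loops that bring such stretches to the promoter are one way in which enhancers reach them.

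MEIS1 lies at chr2:66435125-66573869. The window overlapped 2 protein-coding genes, MEIS1 and ETAA1 (chr2:67397333-67412089), an activator of the ATR kinase at stalled replication forks, beside 20 long noncoding RNAs, 1 microRNA and 6 pseudogenes. The 25 loops used 35 distinct anchors, and 6 of these anchors served at least 2 loops. The most shared one, chr2:66420001-66430000, just upstream of MEIS1 in the noncoding gene MEIS1-AS3, was an end of 6 loops. The anchor at chr2:66570001-66580000, which holds the downstream end of MEIS1 and the near end of the noncoding gene LINC01798, was an end of 4 loops, as was chr2:67830001-67840000 on the far side of ETAA1. In 6 loops an anchor overlapped MEIS1 itself. Loop length ran from 60 kb to 2210 kb with a median of 610 kb, against 440 kb over all loops. Loops that share an anchor share 1 stretch of DNA and are not independent.

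Gene starts inside loop anchors show where the loops meet genes, and the promoters of MEIS1, its antisense neighbour MEIS1-AS3 and the protein-coding SPRED2 are printed here. Those of the noncoding LINC02579 and LOC105374773, in an end of loop3700, and of LOC105374786, in an end of loop3720, are not printed. MEIS1 (chr2:66434875-66435124, forward strand) and MEIS1-AS3 (chr2:66433471-66433720, reverse strand) both start in the anchor chr2:66430001-66440000, an end of loop3722. The promoter of SPRED2 (chr2:65432600-65432849, reverse strand), an inhibitor of the Ras-MAPK pathway, lies in the anchor chr2:65430001-65440000, an end of loop3710. Each sequence is the 250 bases before the RefSeq start (GRCh38.p14), from 5′ to 3′ along the gene, and capitals mark the motif matches.
MEIS1: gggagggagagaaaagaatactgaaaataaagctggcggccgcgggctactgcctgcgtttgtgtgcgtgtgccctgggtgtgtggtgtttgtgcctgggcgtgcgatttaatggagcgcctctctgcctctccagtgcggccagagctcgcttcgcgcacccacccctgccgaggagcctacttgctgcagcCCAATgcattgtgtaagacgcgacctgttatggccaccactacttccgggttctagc
MEIS1-AS3: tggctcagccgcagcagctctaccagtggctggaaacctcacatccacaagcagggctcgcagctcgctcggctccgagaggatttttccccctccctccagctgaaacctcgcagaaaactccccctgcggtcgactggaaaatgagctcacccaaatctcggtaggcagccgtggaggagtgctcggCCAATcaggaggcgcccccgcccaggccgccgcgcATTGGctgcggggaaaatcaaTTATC
SPRED2: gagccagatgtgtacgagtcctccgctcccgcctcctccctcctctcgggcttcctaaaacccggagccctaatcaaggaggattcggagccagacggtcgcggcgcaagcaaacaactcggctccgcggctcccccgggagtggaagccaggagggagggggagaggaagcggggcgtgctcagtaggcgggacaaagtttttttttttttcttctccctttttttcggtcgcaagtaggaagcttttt
On both strands, 5 motifs were searched: the AP-1 site with the letters TGANTCA, the PBX-HOX site with TGATNNAT, the MEIS site with TGACAG, the GATAA motif that GATA factors bind, and the CCAAT box. The last of them was chosen after the sequences had been read. The MEIS1 promoter held 1 match, a CCAAT box starting 57 bases before the start. The MEIS1-AS3 promoter held CCAAT boxes 61 and 26 bases before its start and the GATA letters, read as TTATC, in its last 5 bases. None of these matches overlapped another, and the SPRED2 window held none of the 5. Of the windows not printed, LINC02579 and LOC105374786 each held 1 CCAAT box and LOC105374773 none of the 5. Over 34788 promoter windows of this length, 32.0% held a CCAAT box, 20.5% GATA, 13.0% MEIS, 6.59% AP-1 and 6.49% PBX-HOX. A match is a description of the letters.

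**Figure D1:**
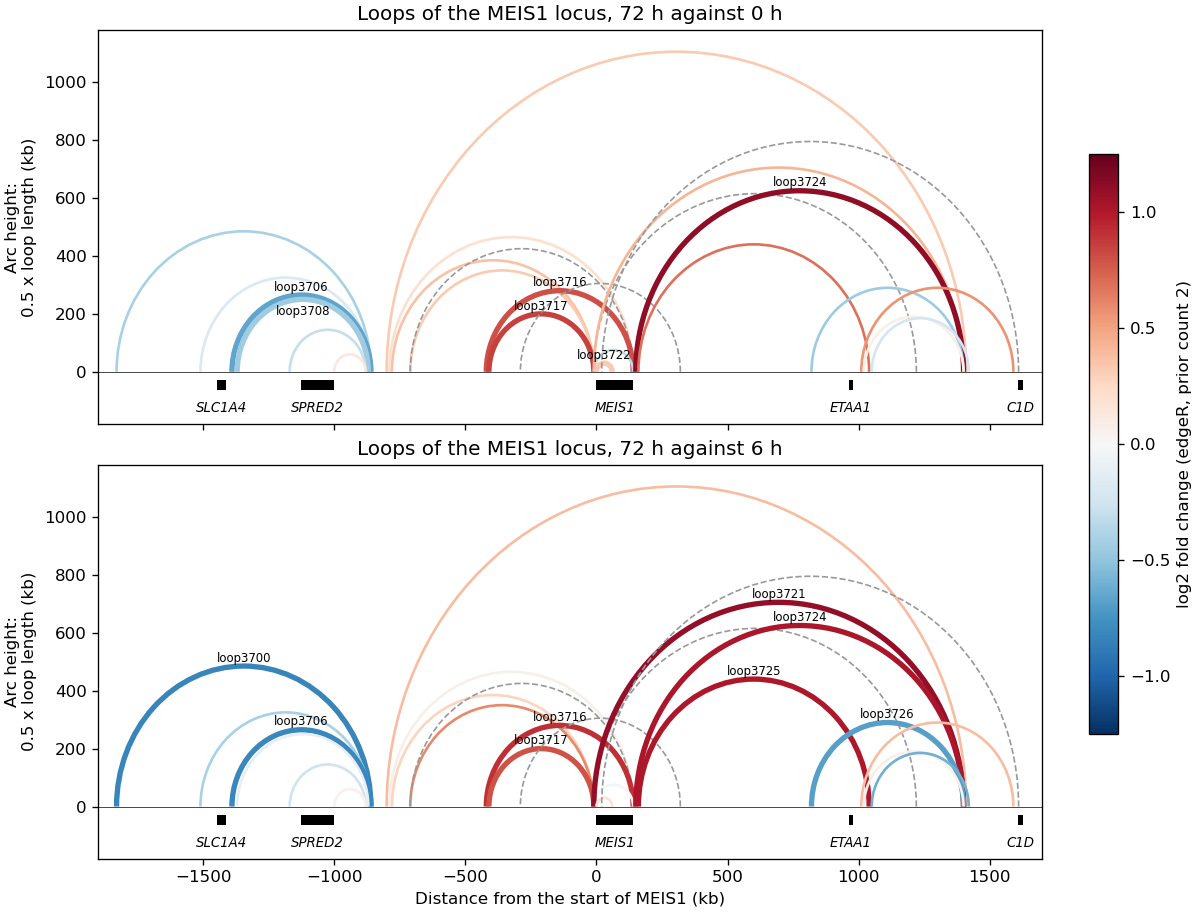
Map of the 25 loops by distance from the start of MEIS1 (x axis, kb), each an arc whose height is 0.5 of the loop length (kb); colour is the log2 fold change of 72 h against 0 h (top) and against 6 h (bottom), thick labelled arcs passed an adjusted p of 0.05, and dashed grey arcs are the 4 untested loops. Thick red arcs run from MEIS1 and its near flanks, and thick blue arcs gather on the SPRED2 side, with loop3726 on the ETAA1 side.

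Counts in the locus were low. The mean count per library over the 25 loops had a median of 13.2 contacts, against 29.25 over all tested loops, and for 1 count of 13 the exact 95% Poisson interval runs from 6.92 to 22.23, for counting error alone. Of the 25 loops, 21 passed the filter on low counts and were tested, and loop3715, loop3718, loop3720 and loop3723 did not. The filter asked for about 10 contacts in at least 4 libraries, and loop3711, loop3714, loop3716, loop3721, loop3725 and loop3727 met it only with the help of the 72 h libraries, so among these 6 a loop that was low at 72 h could not have been tested. Without the 6 h libraries loop3700 and loop3727 would not have met the filter, and without those of 0 h loop3721 would not. Normalized counts below are contacts per 1000000 contacts in tested loops. Log2 fold changes come from edgeR, with a prior count of 2 that pulls the folds of low counts toward 0, and a loop was called when its Benjamini-Hochberg adjusted p over all 24132 tested loops was under 0.05.

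After 6 h of PMA no loop of the locus passed the test. Against 0 h, 0 of 21 loops were called by edgeR, where 6.41% of all tested loops were. DESeq2 also called 0, against 1.82% of all tested loops. It gave no adjusted p at 6 h for most of the 21, loop3721 among them, so it could not have called those. An unadjusted p under 0.05 was reached by 2 of the 21, loop3719 and loop3721, against 20.3% of all tested loops. The median log2 fold change of the 21 loops was 0.07, against 0.01 over all tested loops.

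The strongest difference at 6 h was in loop3721, which links the shared anchor upstream of MEIS1 to chr2:67830001-67840000, 1410 kb away. Its normalized counts were 7.97, 10.4, 11.3 and 13.6 in replicates 1 to 4 at 0 h, and 5.88, 4.67, 7.08 and 6.03 at 6 h. All 6 h libraries lay below all 0 h libraries, which held for this 1 loop of 21 and for 10.7% of all tested loops. The log2 fold change was -0.68 (SE 0.31), with an unadjusted edgeR p of 0.0286 and an adjusted p of 0.182.

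The loop that spans MEIS1 from end to end, loop3719, joins chr2:66420001-66430000 to chr2:66570001-66580000 over 150 kb. Its normalized counts were 53.6, 62.7, 45.2 and 54.6 at 0 h, 44.1, 40.2, 46.7 and 45.8 at 6 h, and 47.8, 35.1, 42.6 and 44.6 at 72 h. The ranges overlapped through replicate 3 of 0 h, and the other 3 libraries of 0 h lay above every later one. The log2 fold changes were -0.30 (SE 0.15, edgeR adjusted p 0.238) at 6 h and -0.34 (SE 0.14, adjusted p 0.0613) at 72 h against 0 h. Neither passed the test as fitted here. At 72 h the loop was called lower with no filter on low counts and with technical replicates as libraries. It was also called without replicate 3 of 0 h or replicate 1 of 72 h. With the replicate block (edgeR adjusted p 0.0538), the length offset (0.112) and DESeq2 (0.167) it was not called.

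At 72 h against 0 h, 6 of 21 loops were called, 4 higher and 2 lower, which is 28.6%, below the 33.6% called over all tested loops. Of the 4 that were higher, loop3716, loop3717 and loop3724 tie the flanks of MEIS1 to the gene-poor DNA on either side, and loop3722 lies within the gene and its promoter. The 2 that were lower, loop3706 and loop3708, belong to the 6 loops of the SPRED2 side. Loops called higher made up 16.7% and loops called lower 16.9% of all tested loops. The libraries of both times did not overlap in 4 of the 21, against 28.3% of all tested loops. The split was 5 higher and 1 lower with libraries scaled to their total count, and 3 higher and 4 lower with an offset for loop length. DESeq2 called 3 of the 21 (loop3706, loop3717 and loop3724), against 20.6% of all tested loops. The share called was near that of all loops, and what follows describes the individual loops.

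Among the tested loops, the largest rise was in loop3724, from the anchor just past the downstream end of MEIS1 (chr2:66580001-66590000, inside LINC01798) to chr2:67830001-67840000, 1250 kb away and beyond ETAA1. Its normalized counts were 6.52, 12.3, 11.3 and 12.5 in replicates 1 to 4 at 0 h, 10.8, 9.35, 15.6 and 9.65 at 6 h, and 21.2, 33.1, 19.8 and 24.1 at 72 h. Every 72 h library lay above every library of the earlier times. Mean ± SD came to 10.2 ± 3.24 (n = 3) for 0 h, 11.3 ± 2.89 (n = 4) for 6 h and 25.4 ± 6.68 (n = 3) for 72 h. On the log2 scale the rise over 0 h was 1.11 (SE 0.23; edgeR adjusted p 4.97e-05), a fold of 2.16, and the rise over 6 h was 1.02 (SE 0.24; adjusted p 0.000656). Both calls held without any single library and with DESeq2. With the length offset the rise over 0 h was 0.70 (adjusted p 0.0146). Within replicates 1 and 2 it was 1.38 (adjusted p 0.000379), and within replicates 3 and 4 it was 0.78 (adjusted p 0.0856).

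On the upstream side, loop3717 and loop3716 link neighbouring anchors in the noncoding gene LINC02934 to the flanks of MEIS1. The first runs 400 kb from chr2:66020001-66030000 to the shared anchor upstream of MEIS1. Normalized counts of loop3717 were 5.79, 12.3, 10.0 and 12.5 at 0 h, 14.7, 8.41, 12.7 and 4.83 at 6 h, and 26.5, 19.1, 19.8 and 11.6 at 72 h. At 72 h, replicate 4 lay inside the range of both earlier times and the other 3 libraries lay above it. The rise was 0.85 (log2, SE 0.25; edgeR adjusted p 0.00428) over 0 h and 0.80 (SE 0.26; adjusted p 0.0164) over 6 h. The call against 0 h was lost without replicate 1 of 0 h (adjusted p 0.0752) or of 72 h (0.0577), and that against 6 h with DESeq2 (0.105) and without replicate 2 (0.0585) or 4 (0.0953) of 6 h or replicate 1 of 72 h (0.127). Against 0 h the log2 fold change was 1.24 within replicates 1 and 2 (adjusted p 0.00262) and 0.38 within replicates 3 and 4 (adjusted p 0.514); against 6 h it was 0.90 (adjusted p 0.0542) and 0.72 (adjusted p 0.258).

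The second, loop3716, runs 560 kb from chr2:66010001-66020000 to the anchor at the downstream end of MEIS1. Normalized counts of loop3716 were 4.35, 7.59, 7.53 and 5.68 at 0 h, 4.90, 8.41, 7.08 and 1.21 at 6 h, and 10.6, 15.1, 11.4 and 11.6 at 72 h. Every 72 h library lay above every earlier one, on raw counts of 1 to 15 contacts per library. It reached the filter's minimum in the 4 libraries of 72 h and in 0 of the earlier 8, so it was tested only because it was high at 72 h. The rise was 0.80 (log2, SE 0.29; edgeR adjusted p 0.0254) over 0 h and 0.91 (SE 0.31; adjusted p 0.0246) over 6 h. The call against 0 h was lost with DESeq2 (adjusted p 0.103), with the length offset (0.0599), and without replicate 1 (0.129) or 4 (0.0518) of 0 h or replicate 2 of 72 h (0.0866). The call against 6 h was lost with DESeq2 (adjusted p 0.106) and without replicate 1 (0.0701) or 4 (0.132) of 6 h or replicate 2 of 72 h (0.0817). Against 0 h the log2 fold change was 0.93 (adjusted p 0.0878) within replicates 1 and 2 and 0.64 (adjusted p 0.31) within replicates 3 and 4; against 6 h it was 0.77 (adjusted p 0.231) and 1.16 (adjusted p 0.114).

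The shortest loop of the locus, loop3722, joins the promoter anchor of MEIS1 to chr2:66490001-66500000 inside the gene, 60 kb away. In loop3722, normalized counts were 84.7, 68.3, 61.5 and 73.9 at 0 h, 85.3, 69.2, 89.2 and 83.2 at 6 h, and 96.4, 100.4, 83.2 and 91.0 at 72 h. The 72 h range overlapped those of 0 h and of 6 h, through replicate 3 of 72 h. The mean went from 73.6 ± 9.66 (SD, n = 3) before PMA to 94.7 ± 6.81 (n = 3) after 72 h, a rise of 0.33 in log2 (SE 0.12; edgeR adjusted p 0.0229). The rise over 6 h, 0.19 (SE 0.12), did not pass the test (adjusted p 0.258). The call against 0 h was lost with DESeq2 (adjusted p 0.0853), with no filter on low counts (0.0965), and without replicate 2 (0.0727) or 3 (0.106) of 0 h or replicate 1 (0.0574) or 2 (0.0799) of 72 h. It was 0.32 within replicates 1 and 2 (adjusted p 0.144) and 0.35 within replicates 3 and 4 (adjusted p 0.138).

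The clearest fall was in loop3706, which runs 530 kb from chr2:65040001-65050000, in the noncoding gene LINC02576, to chr2:65570001-65580000, just inside the window. Its normalized counts were 42.0, 36.1, 35.1 and 45.5 at 0 h, 42.2, 46.7, 48.1 and 42.2 at 6 h, and 21.2, 18.1, 22.9 and 34.8 at 72 h. Every 72 h library lay below every earlier one, with replicate 4 nearest to them. Mean ± SD came to 39.5 ± 3.05 (n = 3) for 0 h, 44.8 ± 3.07 (n = 4) for 6 h and 22.7 ± 5.54 (n = 3) for 72 h. In log2 the change was -0.66 (SE 0.17; edgeR adjusted p 0.0015) against 0 h and -0.82 (SE 0.17; adjusted p 0.000227) against 6 h. Both calls held with DESeq2 and without any single library. Against 0 h the log2 fold change was -0.95 (adjusted p 0.00201) within replicates 1 and 2 and -0.44 (adjusted p 0.199) within replicates 3 and 4; against 6 h it was -1.11 (adjusted p 0.000707) and -0.58 (adjusted p 0.12).

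Its neighbour loop3708 starts in CEP68, a centrosomal protein gene, at chr2:65060001-65070000 and ends at chr2:65560001-65570000. Counts of loop3708, normalized, were 42.0, 30.4, 43.9 and 39.8 at 0 h, 39.2, 29.0, 31.1 and 21.7 at 6 h, and 24.8, 39.2, 25.0 and 24.1 at 72 h. Replicate 2 at 72 h lay inside the 0 h range and the other 3 below it. At 72 h the change in log2 was -0.45 (SE 0.17; edgeR adjusted p 0.0345). The call was lost with DESeq2 (adjusted p 0.131), with total count scaling (0.0663), with a stricter filter on low counts (0.0638), and without replicate 1 (0.112) or 3 (0.073) of 0 h or replicate 1 (0.102), 3 (0.0849) or 4 (0.112) of 72 h. It was -0.23 (adjusted p 0.498) within replicates 1 and 2 and -0.72 (adjusted p 0.0288) within replicates 3 and 4.

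**Figure D2:**
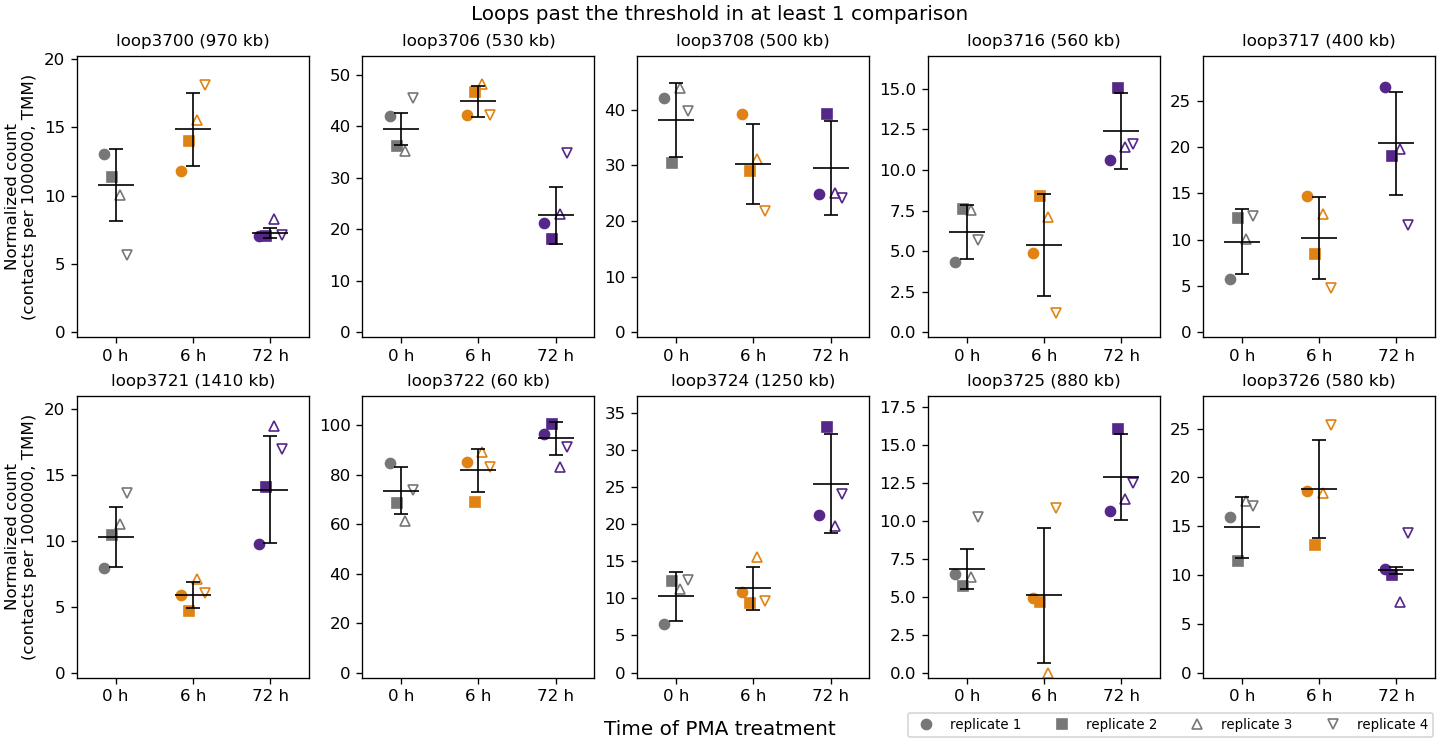
Normalized counts (y axis, contacts per 1000000 after TMM scaling) in each of the 4 libraries at 0 h, 6 h and 72 h (x axis) for the 10 loops called in at least 1 comparison; horizontal bars and whiskers are the mean ± SD, with replicates 3 and 4 counted as 1 sample at 0 h and 72 h. In loop3724 and loop3716 all 72 h points lie above the earlier ones, and in loop3706 all lie below.

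The comparison of 72 h with 6 h shares its 72 h libraries with the comparison against 0 h, so their calls are not independent. In it, 8 of 21 loops were called (38.1%), against 20.5% of all tested loops. Of these, 5 were higher at 72 h and 3 lower, where 10.7% and 9.81% of all tested loops were called in these directions. The libraries did not overlap in 6 of the 21 loops, against 19.8% overall. DESeq2 called 3 of the 21 (loop3706, loop3721 and loop3724), against 8.2% of all tested loops. The 5 that were higher were loop3716, loop3717, loop3724, loop3721 and loop3725, all with an anchor within the region from MEIS1-AS3 to LINC01798. That region was not set in advance. An anchor there was also held by loop3712, loop3713, loop3714, loop3719 and loop3722, which were tested and not called here. One anchor of loop3721 is shared with loop3717 and the other with loop3724. Of the 8 called, loop3716, loop3721 and loop3725 passed the filter only with the help of their 72 h libraries. For loop3700 this held for its 6 h libraries, in each case the higher time of this comparison.

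In loop3721, the 6 h values given above were followed by 9.73, 14.1, 18.7 and 17.0 at 72 h. Every 72 h library lay above every 6 h library, and the 72 h range overlapped that of 0 h. The filter's minimum was reached in 3 libraries at 0 h, 0 at 6 h and 3 at 72 h. It differed by 1.10 in log2 (SE 0.29; edgeR adjusted p 0.00317) from 6 h and by 0.42 (SE 0.26; adjusted p 0.196) from 0 h. The call against 6 h held with DESeq2 (adjusted p 0.0325) and without any single library. It was 0.94 (adjusted p 0.15) within replicates 1 and 2 and 1.19 (adjusted p 0.0433) within replicates 3 and 4.

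The loop from LINC01798 at chr2:66590001-66600000 to chr2:67470001-67480000, loop3725, is 880 kb long and ends on the far side of ETAA1. Normalized counts of loop3725 were 6.52, 5.70, 6.27 and 10.2 at 0 h, 4.90, 4.67, 0.0 and 10.9 at 6 h, and 10.6, 16.1, 11.4 and 12.5 at 72 h. All 72 h libraries lay above all 0 h libraries, and replicate 4 at 6 h lay within the 72 h range. The filter's minimum was reached in 4 libraries at 72 h, 1 at 0 h and 1 at 6 h, so the loop was tested only because it was high at 72 h. The rise in log2 was 1.01 (SE 0.31; edgeR adjusted p 0.013) over 6 h and 0.69 (SE 0.29; adjusted p 0.0544) over 0 h. The call against 6 h was lost with DESeq2 (adjusted p 0.0724) and without 6 h replicate 3, whose count was 0 (0.0739), or 72 h replicate 2 (0.0533). It was 1.18 (adjusted p 0.0595) within replicates 1 and 2 and 0.81 (adjusted p 0.262) within replicates 3 and 4.

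Beside loop3706, the loops lower at 72 h than at 6 h were loop3700 and loop3726. The first is 970 kb long and runs from chr2:64600001-64610000, at the noncoding gene LINC02579, to the anchor chr2:65570001-65580000 that it shares with loop3706. Normalized counts of loop3700 were 13.0, 11.4, 10.0 and 5.68 at 0 h, 11.8, 14.0, 15.6 and 18.1 at 6 h, and 7.08, 7.03, 8.32 and 7.14 at 72 h. All 72 h libraries lay below all 6 h libraries and inside the 0 h range. The filter's minimum was reached in 2 libraries at 0 h, 4 at 6 h and 0 at 72 h. So loop3700 was tested only because it was high at 6 h. In log2, 72 h differed from 6 h by -0.83 (SE 0.28; edgeR adjusted p 0.0226). The call was lost with DESeq2 (adjusted p 0.0946) and without 6 h replicate 4 (0.0792) or 72 h replicate 1 (0.051). It was -0.74 (adjusted p 0.233) within replicates 1 and 2 and -0.95 (adjusted p 0.114) within replicates 3 and 4.

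The second, loop3726, is 580 kb long and runs from the noncoding gene LINC01828, at chr2:67250001-67260000, over ETAA1 to chr2:67830001-67840000. Normalized counts of loop3726 were 15.9, 11.4, 17.6 and 17.1 at 0 h, 18.6, 13.1, 18.4 and 25.3 at 6 h, and 10.6, 10.0, 7.28 and 14.3 at 72 h. Replicate 4 at 72 h lay above replicate 2 at 6 h, so the ranges overlapped. In log2 the difference from 6 h was -0.69 (SE 0.25; edgeR adjusted p 0.0334). The call was lost with DESeq2 (adjusted p 0.122) and without replicate 1 (0.0666), 3 (0.051) or 4 (0.16) of 6 h or replicate 1 (0.0642), 2 (0.0648) or 3 (0.105) of 72 h. It was -0.54 (adjusted p 0.348) within replicates 1 and 2 and -0.87 (adjusted p 0.0933) within replicates 3 and 4. Its end chr2:67830001-67840000 is also the far end of loop3724 and loop3721, which were higher at 72 h than at 6 h, and of loop3728, whose log2 fold change was 0.08 (SE 0.21; adjusted p 0.831).

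**Figure D3:**
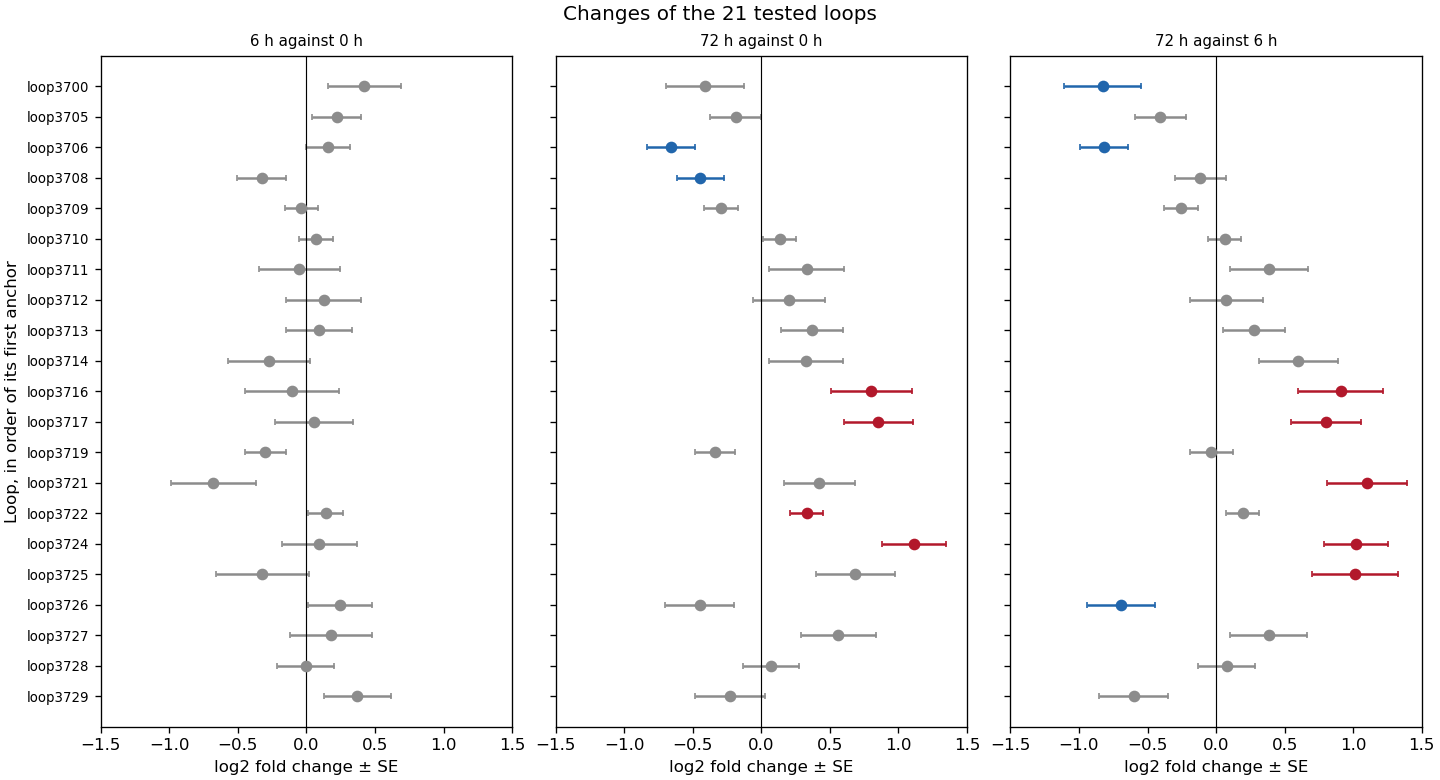
Log2 fold change with its standard error (x axis) of the 21 tested loops, listed by their first anchor (y axis), in the 3 comparisons; red and blue points passed an adjusted p of 0.05 upward and downward, and grey points did not. No point passed at 6 h against 0 h, 6 did at 72 h against 0 h and 8 at 72 h against 6 h.

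Other loops at MEIS1 and its neighbours did not pass the test as fitted here. The loop from chr2:65640001-65650000 to the downstream end of MEIS1, loop3712, had means of 10.8, 11.8 and 13.5 at 0 h, 6 h and 72 h, and 72 h differed from 0 h by 0.20 in log2 (SE 0.26; edgeR adjusted p 0.583). The shared upstream anchor of MEIS1 also met chr2:65650001-65660000 in loop3713, with 0.37 (SE 0.23; adjusted p 0.197), and chr2:65720001-65730000 in loop3714, with 0.33 (SE 0.27; adjusted p 0.355). The SPRED2 promoter loop, loop3710, had means of 83.4, 89.8 and 91.4 and differed by 0.13 in log2 (SE 0.12; adjusted p 0.401). The loop from ACTR2, a subunit gene of the actin-nucleating Arp2/3 complex, to chr2:65550001-65560000, loop3709, had -0.29 (SE 0.12; adjusted p 0.0513). This loop lay at the threshold: it was called with the replicate block (adjusted p 0.0311), the length offset (0.0437), RLE scaling (0.046), a batch term (0.0377) and no filter on low counts (0.0201), and not with total count scaling (0.108) or DESeq2 (0.131). It was -0.16 (adjusted p 0.523) within replicates 1 and 2 and -0.46 (adjusted p 0.0383) within replicates 3 and 4. The longest loop, loop3711, runs 2210 kb from chr2:65630001-65640000 to chr2:67840001-67850000, over MEIS1 and ETAA1, and had 0.33 (SE 0.27; adjusted p 0.355). Each of these is given for 72 h against 0 h, and none of them was called at another comparison, except that loop3709 was called against 6 h within replicates 3 and 4 (adjusted p 0.0462).

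The 4 loops under the filter were read without a test in the same fit. The loop from the shared upstream anchor to chr2:67650001-67660000, loop3720, 1230 kb long, held 7 raw contacts over the 4 libraries at 0 h, 9 at 6 h and 32 at 72 h. In loop3715, from chr2:65720001-65730000 to the downstream end of MEIS1, the sums were 22, 20 and 49. When no filter was applied, these were called at 72 h against 0 h, with log2 fold changes of 1.33 (edgeR adjusted p 0.00214) and 0.84 (adjusted p 0.0254), where loop3724 had 1.05 (adjusted p 0.000129). The sums of loop3718, across MEIS1 from upstream to downstream, were 13, 28 and 22. Those of loop3723, from inside MEIS1 to C1D, a cofactor gene of the nuclear exosome, were 17, 21 and 12, and neither of this pair was called without the filter.

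All 25 loops were next summed by position, in groups set after their values had been seen, so the sums are a description with no test. The 7 loops from the upstream gene-poor DNA to MEIS1 or, in loop3718, across it summed to 58.7, 75.0, 53.9 and 53.4 normalized counts in replicates 1 to 4 at 0 h, to 80.4, 72.0, 49.5 and 53.1 at 6 h, and to 113.2, 100.4, 84.2 and 80.3 at 72 h. The 5 loops from MEIS1 to the downstream side summed to 26.1, 35.1, 33.9 and 43.2 at 0 h, 28.4, 29.0, 32.6 and 32.6 at 6 h, and 46.9, 75.3, 62.4 and 66.1 at 72 h. In both groups all 72 h libraries lay above those of 0 h, and in the upstream group the lowest 72 h library was just under the highest at 6 h. All 5 tested loops of the upstream group and all 3 of the downstream group had a log2 fold change above 0 at 72 h against 0 h, as did 51.0% of all tested loops and 69.5% of those longer than 500 kb, the length of 7 of these 8. With the length offset loop3712 was at -0.09 and loop3721 at -0.02. Of the 8, loop3714, loop3716, loop3721 and loop3725 passed the filter only with their 72 h libraries. The longest loop, loop3711, stood alone. The 6 loops of the SPRED2 side summed to 307.1, 261.1, 282.3 and 301.3 at 0 h, 288.3, 262.6, 326.9 and 322.1 at 6 h, and 243.3, 248.0, 229.8 and 267.8 at 72 h. Replicate 4 at 72 h lay above replicate 2 of both earlier times, so the ranges overlapped, and 5 of the 6 loops had a log2 fold change below 0 at 72 h against 0 h. Both loops with an end on each side of or inside MEIS1, loop3719 and loop3722, summed to 129.0 ± 10.5 at 0 h and 136.8 ± 6.81 at 72 h, and the 4 loops of the ETAA1 side to 58.0 ± 3.47 and 57.4 ± 1.09. All 25 loops together summed to 578.4 ± 21.8 before PMA, 595.2 ± 37.1 after 6 h and 613.1 ± 14.7 after 72 h.

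**Figure D4:**
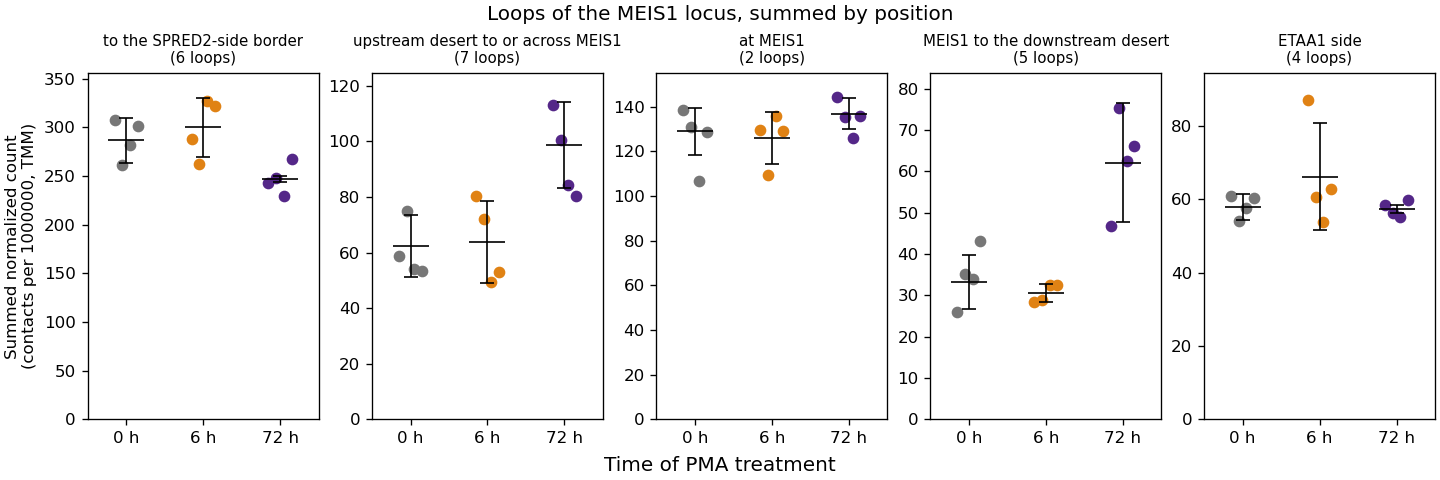
Summed normalized counts (y axis, contacts per 1000000 after TMM scaling) of the loops in 5 groups by position, at 0 h, 6 h and 72 h (x axis); points are the 4 libraries, and bars with whiskers are the mean ± SD with replicates 3 and 4 counted as 1 sample at 0 h and 72 h. The loops from the gene-poor DNA on both sides to or across MEIS1 have their highest means at 72 h, and the SPRED2 side has its lowest mean there, with overlapping libraries.

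Loop length differed between these groups and moved with the change across the whole table. At 72 h against 0 h the 6125 tested loops longer than 500 kb had a median of 0.24 in log2, and the 18007 of at most 500 kb one of -0.06. In the locus it was 0.33 over the 13 loops longer than 500 kb and -0.08 over the other 8. The median over all 21 was 0.20, against 0.01 over all tested loops, 0.14 over the tested loops of chromosome 2 and 0.11 over loops between 380 kb and 880 kb, the quartiles of the locus. With the offset for loop length the median of the 21 was -0.02. At 72 h against 6 h it was 0.08 without the offset and 0.04 with it. The part of loop length in the change of single loops was not tested beyond this offset, under which loop3706, loop3708, loop3717, loop3722 and loop3724 were still called against 0 h.

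**Figure D5:**
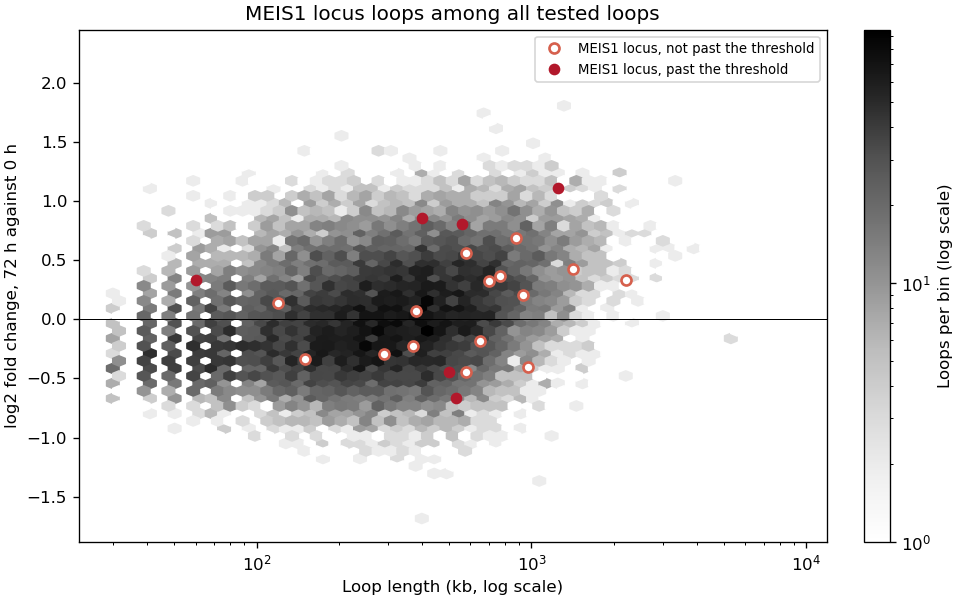
Log2 fold change of 72 h against 0 h (y axis) by loop length (x axis, kb, log scale); grey shading counts all 24132 tested loops, and circles are the 21 tested loops of the locus, filled where called. The shading drifts upward with length, and loop3724 at 1250 kb lies near its upper edge.

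The authors' deposited table classed all 25 loops as static, in a table with 1000 gained and 503 lost loops. A log2 fold change was filled in for 10 of the 25 in the authors' deposited table, and an adjusted p for 9. The deposited adjusted p of 6 h and that of 72 h were the same in every loop, so the value cannot be tied to 72 h alone. Only loop3706 had a deposited adjusted p under 0.05 there, 0.0189, with a log2 fold change of -0.52 at 72 h in the authors' deposited table. For loop3722 the authors' deposited table gave 0.32 with an adjusted p of 0.192, and for loop3708 it gave -0.25 with 0.434. The other 7 called loops were without a deposited adjusted p, loop3726 having a log2 fold change of -0.18 in the authors' deposited table.

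At the borders of the window, loop3709 and loop3729 were the last inside and loop3704 and loop3730 the first outside. Mean normalized counts at 0 h, 6 h and 72 h were 86.7, 87.0 and 72.9 in loop3709 and 38.1, 43.4 and 33.9 in loop3704. On the right they were 12.8, 16.9 and 11.6 in loop3729 and 20.8, 20.6 and 21.7 in loop3730.

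Loops of the genes that work with MEIS1 were read from a pair of lists, 18 cofactor and related genes (the PBX, PKNOX, MEIS and TGIF families and HOXA and HOXB genes) and 10 genes known as targets in blood cells. An end of a listed gene lay in an anchor of 36 loops, of which 33 were tested, for 11 of the 18 partners and 5 of the 10 targets. At 72 h against 0 h, 5 of the 33 were higher and 7 lower, at 6 h against 0 h 2 were higher and 6 lower, and at 72 h against 6 h 5 were higher and 2 lower. These are 36.4%, 24.2% and 21.2% of the 33, where 33.6%, 6.41% and 20.5% of all tested loops were called. Of the 33, 8 were TRIB2 loops that share the anchor chr2:12710001-12720000. They gave 5 of the 7 calls at 72 h against 6 h, and loops that share an anchor are not independent. The median log2 fold changes over the 33 were 0.08, -0.01 and 0.01, against 0.01, 0.01 and 0.00 over all tested loops. At 6 h the split was 1 higher and 6 lower with the other size factors (RLE) and 0 and 4 with the length offset. The 6 h count was 4 without 0 h replicate 1, and the count of 72 h against 6 h was 3 without 6 h replicate 2.

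Among the partners, fewer contacts were counted at PBX2, whose protein is a DNA-binding partner of MEIS1: loop13576 fell from 239.9 ± 19.5 (SD, n = 3) at 0 h to 173.0 ± 22.7 (n = 4) at 6 h and 163.9 ± 16.1 (n = 3) at 72 h. Its log2 fold changes against 0 h were -0.47 (edgeR adjusted p 0.000251) and -0.55 (adjusted p 5.67e-07), and its anchors also held ends of AGER, ATF6B, FKBPL and RNF5. In the HOXB cluster, whose proteins bind DNA beside MEIS1, loop29745 fell at 72 h by 0.33 (adjusted p 0.00368) and loop29742 by 0.36 (adjusted p 0.00697), on the log2 scale. At 6 h loop29745 was already called lower, at -0.46 against 0 h (adjusted p 0.00111). With the length offset loop29745, which is short, was at -0.08 (adjusted p 0.52) at 72 h and at -0.275 (0.0655) at 6 h. The other tested HOXB loops of the list were not called at any comparison. At 72 h against 0 h, loop29739 was at -0.015 (adjusted p 0.964) and loop29741 at 0.12 (adjusted p 0.545). At PKNOX1, a TALE relative of MEIS1, loop32265 fell by 0.42 (adjusted p 0.00711), a call lost with the length offset (0.0702), with DESeq2 (0.0538), within replicates 1 and 2 (0.174) and without 0 h replicate 1 (0.118). At 6 h loop32265 was already called lower, at -0.43 against 0 h (adjusted p 0.0329). That call was lost with DESeq2 (0.141), the length offset (0.178) and total count scaling (0.0577). It was also lost without replicate 1 or 3 of 0 h or of 6 h. The other tested PKNOX1 loop, loop32263, was at -0.095 at 72 h against 0 h (adjusted p 0.636) and was not called. The 2 partner loops that rose were chosen for mention after their values were seen. At MEIS2, a paralog of MEIS1, loop27634 rose at 72 h by 0.72 (adjusted p 0.0163), but with the length offset it was at 0.25 (adjusted p 0.475), and the call was also lost with DESeq2 (0.0774) and without replicate 1 (0.0532) or 2 (0.0757) of 0 h. The other tested MEIS2 loop, loop27646, was at -0.21 at 72 h (adjusted p 0.202) and was not called. At PKNOX2, another TALE relative, loop22764 rose by 0.50 at 6 h (adjusted p 0.0497) and by 0.41 at 72 h (adjusted p 0.0429). The other tested PKNOX2 loops share its first anchor and were not called. At 72 h against 0 h, loop22763 was at -0.03 (adjusted p 0.894) and loop22765 at -0.41 (adjusted p 0.146). With the length offset loop22765 was called lower at 72 h. The 72 h call of loop22764 was lost with DESeq2 (0.137), with no filter (0.114) and without any 1 replicate of 0 h (0.0503 to 0.132) or without replicate 2, 3 or 4 of 72 h (0.0527 to 0.159), and the 6 h call with DESeq2 (0.151), the length offset (0.0651) and without any 1 library of 0 h or 6 h (0.0593 to 0.168). The tested loops of HOXA7 and HOXA9 had log2 fold changes from -0.01 to 0.36 at 72 h and were not called.

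Among the targets, the largest rise was at ERG, an ETS transcription factor of blood stem cells and megakaryocytes. There loop32230 went from 11.0 ± 1.20 (SD, n = 3) at 0 h and 13.5 ± 1.55 (n = 4) at 6 h to 33.1 ± 4.70 (n = 3) at 72 h, with log2 fold changes of 1.45 (edgeR adjusted p 8.44e-09) against 0 h and 1.21 (adjusted p 4.95e-06) against 6 h. At TRIB2, a pseudokinase gene that MEIS1 activates in leukemia, loop3336 rose by 0.52 (adjusted p 0.00165) over 0 h, the 1 call among 8 tested TRIB2 loops in that comparison. Another, loop3325, was higher at 6 h than at 0 h by 0.72 (adjusted p 0.0116) and lower at 72 h than at 6 h (log2 fold change -0.65, adjusted p 0.00973), where 4 other TRIB2 loops were higher. The first of these calls was lost with the length offset (adjusted p 0.0745), and the second with DESeq2 (0.0632) and without 72 h replicate 2 (0.0663). At HIF1A, the hypoxia-response factor, loop26919 rose by 0.51 (adjusted p 0.00625). Contacts at MYB, a transcription factor of blood progenitors, fell at 72 h in loop14993 (-0.84, adjusted p 4.24e-06) and loop14998 (-0.70, adjusted p 9.4e-06), 2 of its 3 tested loops. Already at 6 h, loop14993 and loop14998 were called lower than at 0 h, at -0.59 (adjusted p 0.00789) and -0.53 (adjusted p 0.00595). Neither 6 h call held with DESeq2 (0.073 and 0.0514) or without 0 h replicate 1 (0.0613 and 0.0949). That of loop14993 was also lost without 6 h replicate 4 (0.0942). At CCND3, a cyclin of the G1 phase, loop13700 fell by 0.53 (adjusted p 1.5e-06). It was at -0.47 at 6 h already (adjusted p 0.000298). These MYB and CCND3 loops were not called at 72 h against 6 h. The 72 h calls against 0 h at these targets held without any single library. Within replicates 3 and 4, those of loop3336 (0.355, adjusted p 0.207) and loop26919 (0.336, adjusted p 0.295) were lost.

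The loops with a protein-coding gene whose pattern was most like that of MEIS1 were sought by Pearson's r over the 12 libraries, against the sum of the 4 tested loops that touch MEIS1. That sum was 146.0 ± 10.2 (SD, n = 3) before PMA, 143.1 ± 10.3 (n = 4) after 6 h and 162.8 ± 9.20 (n = 3) after 72 h. Most of the sum came from loop3722, with means of 73.6 at 0 h and 94.7 at 72 h, and loop3719, with 55.4 and 42.2. These moved in opposite directions, so the sum is not a pattern that the 4 loops share. It also held loop3716, which was tested only because it was high at 72 h. Of 8481 loops compared, the 5 most alike were at TFAP2B (loop13818, r = 0.9022), FAM9A (loop32734, 0.8848), BEX4 (loop33495, 0.8663), CFAP299 (loop9058, 0.8577) and DUSP23 (loop2215, 0.8532). They were picked as the highest of many on 12 points that share libraries and depth, so the values are a description. The loop at TFAP2B had means of 27.0, 27.6 and 37.8 at 0 h, 6 h and 72 h.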

How the data were processed

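In situ Hi-C contacts were counted in 12 libraries (42 samples). Per the file headers, the authors deposited raw counts of each loop, with 1 column to a technical replicate (30 in all). They also deposited log2 fold changes, an adjusted p-value and a class, and how these were made is not given in the sources used here. Juicer 1.5.6, DESeq2, DESeq and hg38 are named in the submitters' processing notes, with no roles. A count holds local background as well as the loop, and it falls with loop length.

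Technical replicates were summed per biological replicate. Counts were fitted in 1 model of the 12 libraries with edgeR 4.0.16 in R 4.3.3 (TMM, quasi-likelihood test, filterByExpr with a minimum count of 10 and total of 15, prior count 2). This left 24132 loops and set 9782 aside. The standard error is the log2 fold change divided by the root of F. The fit was also run on simulated counts with the same spread between libraries for all loops, and no result here rests on that run. Fits kept replicates 3 and 4 apart. Other settings tried were scaling by total count or RLE, other filters, DESeq2 1.42.0, a batch term, a replicate block, fits within replicates 1 and 2 and within 3 and 4, a loess offset (span 0.3) on log10 length, summed or technical replicates, stricter thresholds, and each library left out. The batch term sets replicates 1 and 2 against 3 and 4, and the labels name no batch. Replicates 1 and 2 had 3 technical replicates each at a time, and replicates 3 and 4 had 2.

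The replicate numbers were checked for pairing. Same-numbered libraries of different times had correlations of their deviations from 0.0146 to 0.1237, with 1 of 12 over 0.1. These were low, yet in 21 of 24 cases a library correlated best with its own number at another time. The main fit did not take the numbers as pairs, and the counts with a replicate block are given below.

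Loops named were those called, those at MEIS1 or at another protein-coding gene's end, the longest and shortest, those at the window's borders, up to 10 called list loops and the 5 most alike. loop3325, loop3713, loop3714, loop3718, loop3720, loop3728, loop22764, loop27634 and the HOXA loops were named after their values were seen. The same holds for loop22763, loop22765, loop27646, loop29739, loop29741 and loop32263. The loops and lists were chosen with earlier results of these data known. Gene positions and promoters are RefSeq's (GRCh38.p14), and all 28 listed genes were matched by symbol.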

Additional observations from a re-analysis of the deposited data

Results flagged for a closer look

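In 4 of the 63 groups of 4 libraries (21 loops at 3 times), 1 library stood apart from the other 3 by Dixon's criterion, where chance gives about 1 in 20, or 3.15. At 72 h, replicate 2 of loop3708, from CEP68 to the SPRED2-side border, held 39.15 normalized counts against 24.1 to 24.96 in the others; without it the loop was still called against 0 h. At 72 h, replicate 3 of loop3700 held 8.32 against 7.027 to 7.141, a gap within counting error. At 0 h, replicate 1 of loop3705 held 33.32 against 25.09 to 26.15, and at 72 h, replicate 4 of loop3728, on the ETAA1 side, held 18.75 against 24.09 to 24.96.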

How the results depend on the processing

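None of the 14 calls in the locus reversed its direction under any alternative run, and 5 of the 14 held in all fits that left out 1 library. The count of 6 called loops at 72 h against 0 h became 2 with a mean count of at least 20, 3 within replicates 1 and 2, 2 within replicates 3 and 4, 3 with DESeq2, 3 at an adjusted p under 0.01 and 3 with both anchors inside the window. It ran from 3 to 7 as single libraries were left out. The count of 8 at 72 h against 6 h became 1, 2, 2, 3, 3 and 3 under the same alternatives, and ran from 5 to 8. With the replicate block, the counts were 0, 7 and 8 in the locus (6 h against 0 h, 72 h against 0 h, 72 h against 6 h) and 8, 13 and 8 for the partner and target genes; in 21 of 24 cases a library correlated best with its own number at another time, a hint from the data and not from the design. For those genes, the 8 loops called at 6 h became 1 within replicates 1 and 2, 2 within replicates 3 and 4, 4 with the length offset, 3 with DESeq2, 5 at an adjusted p under 0.01 and 2 at a fold change of at least 1.5, and ran from 4 to 8 as libraries were left out. The 12 at 72 h against 0 h became 4 at a fold change of at least 1.5 and 29 with a gene end within 10 kb of the anchor. The 7 at 72 h against 6 h became 1 within replicates 3 and 4, 2 with DESeq2, 3 at an adjusted p under 0.01, 4 at a fold change of at least 1.5 and 11 with a gene end within 10 kb, and ran from 3 to 8. The stricter filter on mean count left most of the called loops untested, and the fits within replicates used fewer libraries; otherwise the cause was not tested. Summing replicates 3 and 4 at every time, chosen after seeing the data, gave 0, 6 and 8 in the locus. Low counts limit what can be seen here: a median loop of the locus held 13.2 contacts per library.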
